A study of Mus musculus with 11 samples.

Results

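Curaxin-137 given in drinking water at 0.2 mg/ml was compared with plain water in the spleen of mice that carry a Her2/neu transgene. The comparison rests on 3 arrays of the 11 in the series, chosen by their titles: replicates 62 and 62_86 at 0.2 mg/ml, and replicate 8, the only spleen from a mouse on plain water. All mice of the series carried the transgene. Treatment began at 4 weeks of age and ended at 14 weeks, after 10 weeks of drinking the compound, and the water group drank plain water over the same span. Beside them stand 2 spleens at 0.1 mg/ml (replicates 56 and 32), and livers at 0.2 mg/ml (replicates 73 and 85) and on water (replicates 1 and 25). The promoter of the transgene and the strain and sex of the mice are not given in the sources used here. Since both treated arrays carry the number 62, they may come from 1 animal, and their spread may then be technical.

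Curaxins are small molecules that bind DNA without cutting it. They trap the histone chaperone FACT, whose subunits are encoded by Ssrp1 and Supt16, on chromatin, and in cultured cells they activate p53 and inhibit NF-kB. Loosening of nucleosomes by curaxins has also been tied to an interferon response in mouse cells and tissues. The spleen joins 2 compartments. Its white pulp holds B and T lymphocytes. Its red pulp filters blood through sinuses lined by macrophages that engulf old red cells and return their iron.

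Each array measured 45281 probes, of which 41.5% to 43.2% were detected at 0.2 mg/ml and 42.1% on the water array. Genes of spleen lymphocytes and macrophages were detected. Cd79b, a chain of the B cell receptor, read 11.72 and 11.88 at 0.2 mg/ml and 12.02 on water, in log2 normalized intensity, the scale of every level below. Cd3d, Cd3e and Cd3g, chains of the T cell receptor complex, read between 9.48 and 9.80 on the 3 arrays, and Spic and Vcam1, which mark red pulp macrophages, were detected on all of them. Alb of hepatocytes, Plin1 of fat cells, Epcam and Krt18 of epithelium, the milk gene Csn2 and the pancreatic genes Cpa1, Ctrb1, Cela3b and Prss2 were undetected on all 5 spleen arrays. Other genes of such cells were detected at low levels: Apoa1 of hepatocytes on all 5 (4.49 and 4.56 at 0.2 mg/ml, 4.77 on water), Adipoq of fat cells on 3 and Krt8 of epithelium on 1. Replicates 62 and 62_86 correlated at 0.989 across tested features, with an SD of 0.284 for the difference between them. They correlated at 0.979 and 0.972 with the water array. The 0.1 mg/ml arrays correlated at only 0.948 with each other, with an SD of the difference of 0.616. The liver pair at 0.2 mg/ml, whose labels carry different numbers, correlated at 0.992. These correlations across features are descriptions only.

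At 0.2 mg/ml, genes of the complement recognition protein C1q, red pulp macrophage genes and interferon-induced genes read higher than on water, and many histone genes read lower. None of these differences passed the test. Of 14179 features, 11025 of them named genes, 0 (0%) reached an adjusted p of 0.05 by limma with Benjamini-Hochberg adjustment, and the smallest adjusted p of a named gene was 0.128. At an unadjusted p under 0.05 there were 805 features, 462 higher and 343 lower, where 709 would be read by chance. Of all features, 36.8% read higher on both 0.2 mg/ml arrays than on water and 38.5% read lower on both. Differences of at least 1 log2 unit on both arrays, which is 2-fold, were found for 185 features higher (1.30%) and 65 lower (0.458%). The counts of list members below are to be read beside these shares.

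The count of 0 depends on which arrays supply the spread. The fit took it from the 0.2 and 0.1 mg/ml pairs together, because the water array has no replicate. When either 0.1 mg/ml array is left out, only replicates 62 and 62_86 supply it. Without replicate 56 at 0.1 mg/ml, 767 features were called, and without replicate 32, 578. With only the 3 arrays of 0.2 mg/ml and water, 767 were called, all against the small spread of replicates 62 and 62_86. When all 11 arrays of both tissues were fitted together, 82 were called, 68 of them higher, and limma's moderation with an intensity trend and robust settings called 5. No fit can tell the treatment apart from what sets the single water mouse apart from other untreated mice.

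Several interferon-induced genes were among those that read higher. Interferons are secreted antiviral proteins, and their receptors switch on genes through the STAT and IRF transcription factors. Ifit3, an antiviral protein that binds foreign RNA, read 8.02 and 8.09 at 0.2 mg/ml, against 5.91 on water. Both treated arrays lay more than 2 units above the water array, while they differed from each other by far less. The choice by raw p favours this pattern, here and for the next genes. The fitted difference was 2.14 ± 0.26 (SE; adjusted p = 0.167). Gbp2b, a guanylate-binding protein that attacks the vacuoles of intracellular microbes, read 10.10 and 10.09 at 0.2 mg/ml, against 7.96 on water. Again the treated arrays were close together and far above water, with a difference of 2.14 ± 0.27 (adjusted p = 0.167). Cxcl10, a chemokine that draws activated T cells and that interferon-gamma induces, read 7.17 and 7.28 at 0.2 mg/ml, against 4.69 on water. Its difference was 2.53 ± 0.29 (adjusted p = 0.128).

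Serpina3f, a serine protease inhibitor of the expanded mouse Serpina3 cluster, had the smallest raw p of all named genes that read higher. It read 7.67 and 8.05 at 0.2 mg/ml, against 5.13 on water. A choice by raw p favours treated values that lie close together and far from water. The difference was 2.73 ± 0.30 (adjusted p = 0.128), and no treated value came near the water value. Over 15 alternative analyses the difference ran from 1.95 to 2.97 and the adjusted p from 2.3e-08 to 1.00, with 6 of the 15 past the threshold.

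**Figure D1:**
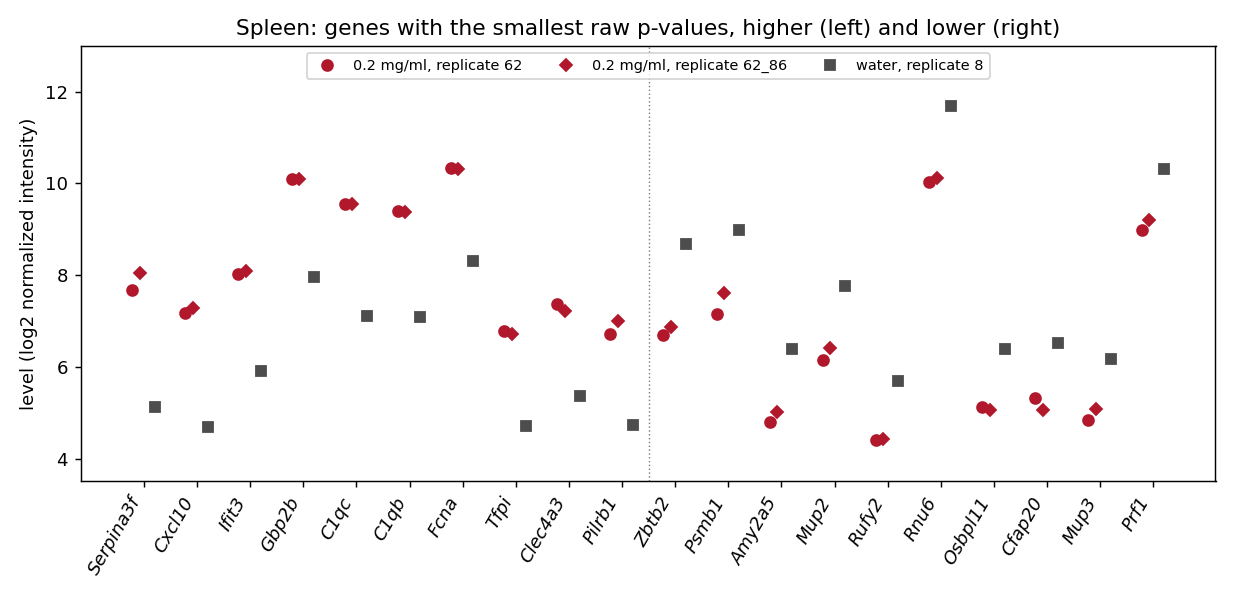
Level of 20 genes (log2 normalized intensity) on the 2 spleen arrays at 0.2 mg/ml (red, left in each pair) and on the water array (grey, right). The 10 genes left of the dotted line have the smallest raw p among those that read higher, the 10 right of it among those that read lower. For every gene the treated points lie close together and the water point stands off, for example Cxcl10 at 7.17 and 7.28 against 4.69. The choice by raw p favours this pattern, so it is not a separate result. The treated arrays may also come from the same animal.

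The antiviral list had 28 tested members, and 25 read higher on both 0.2 mg/ml arrays than on water, 2 lower on both, with 7 past 1 log2 unit on both. Its median difference was 0.76, beside a median of -0.00 over all features. 0 of its members passed the test. Ifi27l2a, a small mitochondrial protein induced by interferon, read 10.66 and 10.95 at 0.2 mg/ml, against 9.05 on water. Oasl2, of the oligoadenylate synthetase family of viral RNA sensors, read 7.61 and 7.49, against 5.92 on water. Both genes were high on both treated arrays. Ifitm3, a membrane protein that blocks virus entry, read 11.04 and 11.01 at 0.2 mg/ml, against 9.65 on water. Irf7, the factor that amplifies type I interferon transcription, read 5.80 and 6.28, against 4.50 on water. Usp18, which removes the ubiquitin-like protein ISG15 and dampens receptor signalling, read 7.48 and 7.40, against 5.86 on water. In each of these both treated arrays read above the water array, as for 36.8% of all features, and the genes were picked by raw p. The fitted differences ran between 1.38 for Ifitm3 and 1.75 for Ifi27l2a, with adjusted p of 0.259 to 0.518. Dhx58, an RNA helicase of the RIG-I family, had a difference of 1.13 ± 0.27. Oas1g was undetected on water and at least 2.02-fold higher at 0.2 mg/ml. The list's summed level, in linear normalized intensity, was 10939 and 11020 at 0.2 mg/ml, against 6378 on water.

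The interferon-inducible GTPases, which guard cells against intracellular parasites and bacteria, had 10 tested members. Of these, 9 read higher on both arrays, 4 of them past 1 log2 unit, with a median difference of 0.87. Gbp2 read 10.18 and 10.40 at 0.2 mg/ml, against 8.52 on water, a difference of 1.77 ± 0.29 (adjusted p = 0.259). Igtp, also called Irgm3, read 9.31 and 9.51, against 7.97 on water, with a difference of 1.44 ± 0.35. Gvin1, a giant member of the family, read 10.05 and 9.79, against 8.62 on water. All 3 genes were high on both treated arrays. The brightest probe of Irgm1 read lower, at 10.97 and 11.07 against 11.31 on water, but its second probe read higher, at 7.83 and 7.97 against 6.61, so its direction is not settled. Members of the family are similar in sequence, so a probe can also catch a near relative.

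Promoter sequences of 5 of these genes are shown because the letters that interferon-activated factors recognise can be read in them. The interferon-stimulated response element was searched as GAAANNGAAA on both strands in the 250 bases before the first listed start of each gene, in the RefSeq promoter table of build GRCm38.p6. Matches are in capitals, and each line runs 5′ to 3′ on the gene's strand.
Ifit3, chr19:34583335-34583454, plus strand: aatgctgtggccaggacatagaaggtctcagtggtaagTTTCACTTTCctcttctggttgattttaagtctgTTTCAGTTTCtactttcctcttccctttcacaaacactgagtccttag
Cxcl10, chr5:92349020-92349139, minus strand: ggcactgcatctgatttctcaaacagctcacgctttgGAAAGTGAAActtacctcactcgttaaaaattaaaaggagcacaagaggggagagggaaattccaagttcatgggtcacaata
Gbp2, chr3:142620543-142620662, plus strand: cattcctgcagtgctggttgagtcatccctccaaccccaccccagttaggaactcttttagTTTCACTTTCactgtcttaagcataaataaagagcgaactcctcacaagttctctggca
Gbp2b, chr3:142594655-142594774, plus strand: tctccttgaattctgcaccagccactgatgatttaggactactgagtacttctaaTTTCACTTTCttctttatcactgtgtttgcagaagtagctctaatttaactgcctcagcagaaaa
Igtp, chr11:58199436-58199555, plus strand: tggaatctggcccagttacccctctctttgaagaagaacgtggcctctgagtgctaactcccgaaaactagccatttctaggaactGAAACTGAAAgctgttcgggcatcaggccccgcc

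In these windows Ifit3 held 2 matches and each of the other genes 1, and in Ifit3, Gbp2 and Gbp2b they lie on the opposite strand and so appear as their reverse complement. The motif was present in 2.91% of the 8920 tested genes with a promoter in the table. It was present in 8 of the 9 GTPase promoters found there and in 7 of 18 antiviral ones. The gamma-activated site, searched as TTCNNNGAA, was present in 6.07% of promoters of tested genes, in 5 of the 9 GTPase promoters and in 4 of 18 antiviral ones. Serpina3f held the second motif and not the first, and is shown with that match in capitals. Its window lies upstream of its start.
Serpina3f, chr12:104214367-104214486, plus strand: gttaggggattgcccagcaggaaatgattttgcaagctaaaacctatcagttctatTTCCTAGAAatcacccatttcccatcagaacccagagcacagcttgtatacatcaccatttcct

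Neither motif was found in the windows of C1qb, C1qc and Fcna. A match describes letters in a window and no match says only that these letters are not there. The antiviral and GTPase lists are made of interferon-induced genes, so their motif shares do not bear on the differences between arrays.

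Genes that present antigen on MHC class I, which interferon also raises, read higher by less. Of 16 tested members 12 read higher on both 0.2 mg/ml arrays and 2 lower on both, with a median of 0.43 and 0 past 1 log2 unit on both. B2m, the light chain shared by all class I molecules, read 12.94 and 13.04 at 0.2 mg/ml, against 12.38 on water. Nlrc5, the transactivator of class I genes, read 8.52 and 8.67, against 7.61 on water. Tap2, a subunit of the peptide transporter, read the other way, at 8.58 and 8.67 against 9.19 on water. MHC class II genes had a median of -0.10 over 11 members, with 5 higher on both arrays and 3 lower on both.

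The 4 genes of the complement lectin and C1q list read higher, with a median difference of 2.16. Each was past 1 log2 unit on both arrays. The list was chosen with earlier results of these data known, so its median and count are descriptions. C1q recognises antibody complexes and dying cells and starts the classical complement pathway, and tissue macrophages are its main source. C1qa, C1qb and C1qc encode its 3 chains and sit next to each other on chromosome 4. C1qc read 9.55 and 9.56 at 0.2 mg/ml, against 7.11 on water, a difference of 2.44 ± 0.27 (adjusted p = 0.128). C1qb read 9.41 and 9.38 at 0.2 mg/ml, against 7.09 on water, a difference of 2.30 ± 0.26 (adjusted p = 0.128). C1qa read 7.95 and 8.15 at 0.2 mg/ml, against 6.31 on water, a difference of 1.74 ± 0.27. The treated arrays agreed closely and the water array was far below in all 3. C1qb and C1qc are among the genes with the smallest raw p, a choice that favours this pattern. Fcna, ficolin A, a soluble lectin of macrophages that starts the lectin pathway, read 10.34 and 10.32 at 0.2 mg/ml, against 8.31 on water, with a difference of 2.01 ± 0.27 (adjusted p = 0.186).

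Other genes of red pulp macrophages read higher with them. Of 16 tested members of that list, 14 read higher on both 0.2 mg/ml arrays, 8 of them past 1 log2 unit, and 1 read lower on both, with a median of 1.05. Spic, the transcription factor that these macrophages need to form, read 9.06 and 9.13 at 0.2 mg/ml, against 7.95 on water. Vcam1, an adhesion molecule on their surface, read 11.42 and 11.19, against 10.18 on water, while 2 far dimmer probes of it differed by -0.14 and 0.02. With the brightest probe of each, the treated arrays stood apart from water in both. Treml4, a receptor for dead cells, read 7.32 and 6.99 at 0.2 mg/ml, against 5.21 on water. Mertk and Axl are receptors for the engulfment of apoptotic cells, and their differences were 1.31 ± 0.26 and 0.99 ± 0.27. Mrc1, the mannose receptor, differed by 1.48 ± 0.32, and Trf, transferrin, by 1.43 ± 0.30. C6, a complement component, differed by 1.17 ± 0.26. Adjusted p-values in this list were 0.258 or more. Slc40a1, the iron exporter ferroportin, read 12.16 and 11.92 at 0.2 mg/ml, against 11.17 on water. Cd5l, also a macrophage marker, was undetected on all 5 spleen arrays. The summed level of the list was 12542 and 11389 at 0.2 mg/ml, against 6365 on water. In bulk spleen a larger share of a cell type and more RNA per cell of it cannot be told apart.

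**Figure D2:**
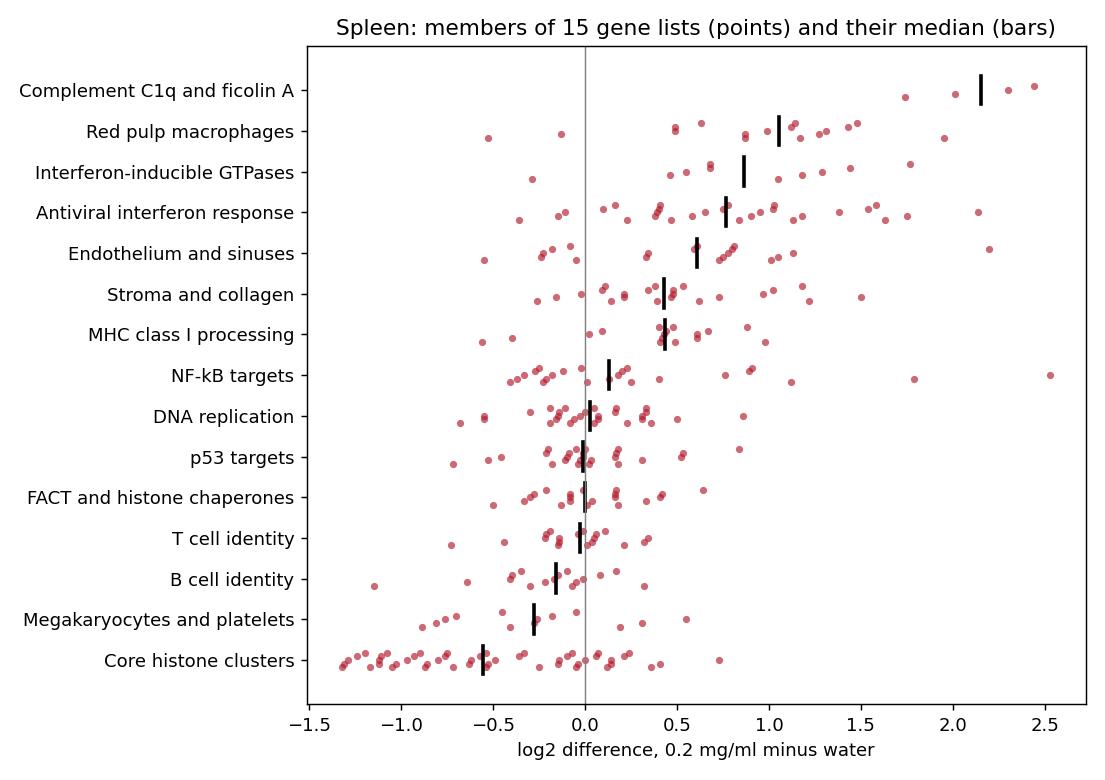
Log2 difference between spleen at 0.2 mg/ml and on water for each tested member (points) of 15 gene lists, with the median of each list as a black bar. The list of C1q and ficolin A lies farthest to the right (median 2.16) and the core histone list lies to the left (median -0.55). The lists for p53 targets and FACT lie at 0 (medians -0.01 and 0.00). The lists were chosen with earlier results of these data known, so their order is a description.

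Macrophage and myeloid surface receptors were also among the genes with the smallest raw p. Clec4a3, a C-type lectin receptor of myeloid cells, read 7.38 and 7.22 at 0.2 mg/ml, against 5.36 on water, a difference of 1.94 ± 0.26 (adjusted p = 0.186), and a far dimmer probe of it differed by 0.22. Pilrb1, an activating paired receptor, averaged 6.85 ± 0.21 (SD, n = 2) at 0.2 mg/ml, against 4.74 on water, a difference of 2.11 ± 0.29 (adjusted p = 0.186). Tfpi, the inhibitor of the tissue factor pathway of clotting, read 6.78 and 6.72, against 4.70 on water, a difference of 2.05 ± 0.26 (adjusted p = 0.167). For these genes too the treated arrays lay together above water, a pattern that the choice by raw p favours. For Tfpi the brightest probe over all 11 arrays was another one, which gave a difference of 0.06. Ly6c1, a surface protein of monocytes and endothelium, read 9.48 and 9.31 at 0.2 mg/ml, against 7.75 on water.

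Among chemokines and their receptors, 14 of 24 tested members read higher on both arrays and 6 lower on both. Past 1 log2 unit higher were 4. Over all features the shares were 36.8%, 38.5% and 1.30%. Cxcl9, which interferon-gamma induces and which binds the same receptor as Cxcl10, read 8.99 and 9.18 at 0.2 mg/ml, against 7.35 on water. Ccl4, a macrophage inflammatory protein, read 7.38 and 7.76, against 5.79 on water. Cxcl12, which stroma makes to hold lymphocytes and stem cells, read 10.17 and 10.25, against 8.95 on water. Their differences were 1.73 ± 0.32, 1.79 ± 0.29 and 1.26 ± 0.28.

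Stromal and vascular genes read higher too, and their levels stand beside the macrophage genes. Of 22 stromal and collagen genes 16 read higher on both arrays and 1 lower on both (median 0.43). Col4a1, a chain of basement membrane collagen, read 8.99 and 8.89 at 0.2 mg/ml, against 7.76 on water. Of 19 endothelial genes 12 read higher on both and 3 lower on both (median 0.61). Clec4g, a lectin of sinusoidal endothelium, read 9.17 and 9.13, against 6.96 on water, and Cldn5, a tight junction protein of endothelium, read 8.47 and 8.67, against 7.44 on water. The summed levels were 8956 and 8927 at 0.2 mg/ml against 6646 on water for stroma, and 4135 and 4395 against 2885 for endothelium. Adipoq, the fat cell hormone adiponectin, was undetected on water and at least 2.35-fold higher at 0.2 mg/ml, where it read 5.56 and 5.69. Of 5 tested fat cell genes 4 read higher on both arrays, Plin1 was undetected throughout, and the summed level was 572 and 580 against 399 on water. Their part in the results above was not tested.

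Neutrophil granule genes read higher on both arrays in 14 of 18 members (median 0.42). S100a8, a subunit of calprotectin, read 10.83 and 10.87 at 0.2 mg/ml, against 8.90 on water. Among the other spleens it ranged more widely, at 9.87 and 12.52 on the 0.1 mg/ml arrays, and the SE of its difference of 1.95 was 0.92. Their summed level was 4093 and 4399 at 0.2 mg/ml against 1977 on water, and 3298 and 16909 at 0.1 mg/ml. Car1, a carbonic anhydrase of young red cells, had the largest difference of the listed genes at 3.40 ± 1.01. It read 9.74 and 9.79 at 0.2 mg/ml, against 6.37 on water, but 8.20 and 11.12 at 0.1 mg/ml, so its level also varied widely between the 0.1 mg/ml arrays. The erythroid list as a whole had a median of -0.03, with 12 of 26 members higher on both arrays and 11 lower on both.

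Killer cell genes read in both directions. Klrg1, an inhibitory receptor of mature killer cells, was undetected on water and at least 2.74-fold higher at 0.2 mg/ml. Nkg7, a protein of cytotoxic granules, read 8.99 and 9.45 at 0.2 mg/ml, against 7.69 on water. Prf1, the pore-forming protein perforin, read lower, at 8.98 and 9.21 against 10.32 on water, a difference of -1.23 ± 0.28 (adjusted p = 0.473). A dimmer second probe of Prf1 differed by 0.39 in the other direction. Of the 12 tested members 7 read higher on both arrays and 3 lower on both.

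Lymphocyte genes stayed nearer to water. B cell genes read lower on both arrays in 11 of 16 members and higher in 2, with a median of -0.16. Cr2, the complement receptor that marks follicular and marginal zone B cells, read 7.64 and 7.43 at 0.2 mg/ml, against 8.69 on water. T cell genes had a median of -0.03 over 18 members. Megakaryocyte and platelet genes read lower on both arrays in 9 of 13 members and higher in 2, with a median of -0.28. Pf4, the platelet chemokine, read 10.10 and 9.82 at 0.2 mg/ml, against 10.66 on water, and Gp5, a platelet receptor subunit, read 7.97 and 7.63, against 8.61 on water. The differences were -0.70 ± 0.28 and -0.81 ± 0.29, with adjusted p of 0.854 and 0.774.

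The pathways that curaxins are known for showed small differences of mixed sign. Ssrp1, Trp53 and Hsf1 are not analysed here. Supt16, the large FACT subunit, read 7.17 and 7.58 at 0.2 mg/ml, against 7.33 on water, so the treated arrays lay on both sides of it, and its difference of 0.04 ± 0.36 turned negative in 2 alternative analyses. On a second Supt16 probe both treated arrays were lower, at 6.18 and 6.37 against 6.82 on water. The 20 genes of FACT and other histone chaperones had a median of 0.00, with 6 higher and 8 lower on both arrays. Of 25 p53 targets 8 read higher on both arrays and 5 lower on both, with a median of -0.01. Over all features 36.8% read higher on both and 38.5% lower on both. Cdkn1a, the p53-induced cell cycle inhibitor p21, read 5.50 and 5.46 at 0.2 mg/ml, against 4.95 on water, a difference of 0.53 ± 0.46. Mdm2, the ubiquitin ligase that p53 induces and that degrades it, read 8.83 and 8.46, against 9.37 on water, but a second probe differed by 0.23 in the other direction.

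NF-kB targets had a median of 0.13 over 23 members, with 11 higher on both arrays and 7 lower on both. The members farthest from water were Cxcl10, Ccl4 and Vcam1, which stand in other lists too. Nfkbia, the NF-kB inhibitor that NF-kB itself induces, read 8.88 and 9.06 at 0.2 mg/ml, against 8.72 on water, a difference of 0.25 ± 0.45. Its second probe went the other way, at 6.24 and 5.78 against 7.13 on water. Rela, the p65 subunit, read 9.72 and 9.65, against 10.15 on water, a difference of -0.46 ± 0.26. Heat shock genes, which HSF1 drives, had a median of 0.15 over 21 members, with 10 higher and 6 lower on both arrays. Hsph1, a large chaperone, differed by 1.13 ± 0.46 and its partner Stip1 by 0.91 ± 0.29. Genes of DNA replication had a median of 0.03 over 28 members and genes of mitosis had a median of 0.01 over 20. Erbb2, the mouse counterpart of the transgene, was undetected on water and at least 1.29-fold higher at 0.2 mg/ml, where it read 4.72 and 4.79.

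Histone genes were the group that read lowest against water. Core histones package DNA, and most genes of their clusters make short messages without a poly(A) tail during DNA synthesis. The list was formed after the values were seen, from every gene symbol of the H2A, H2B, H3 and H4 clusters, so its count is a description. Of 48 tested members 33 read lower on both 0.2 mg/ml arrays than on water and 7 higher on both, and 9 were past 1 log2 unit lower, with a median of -0.55. H4c12, a histone H4 gene, read 6.39 and 6.63 at 0.2 mg/ml, against 7.84 on water, a difference of -1.32 ± 0.30 (adjusted p = 0.473). H4c6, which encodes the same protein, read 7.47 and 7.18, against 8.63 on water. H2bc18, a histone H2B gene, read 4.94 and 4.40, against 5.91 on water. In each the treated arrays were low. Histone genes of a class are nearly identical, so their probes may share signal and are not independent. The H2A genes lay nearer to water, and H2ac8 read highest in the list at 0.73 above it. The summed level of the list, which its brightest probes set, was 24528 and 28506 at 0.2 mg/ml against 29301 on water, and 9759 and 72181 at 0.1 mg/ml.

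**Figure D3:**
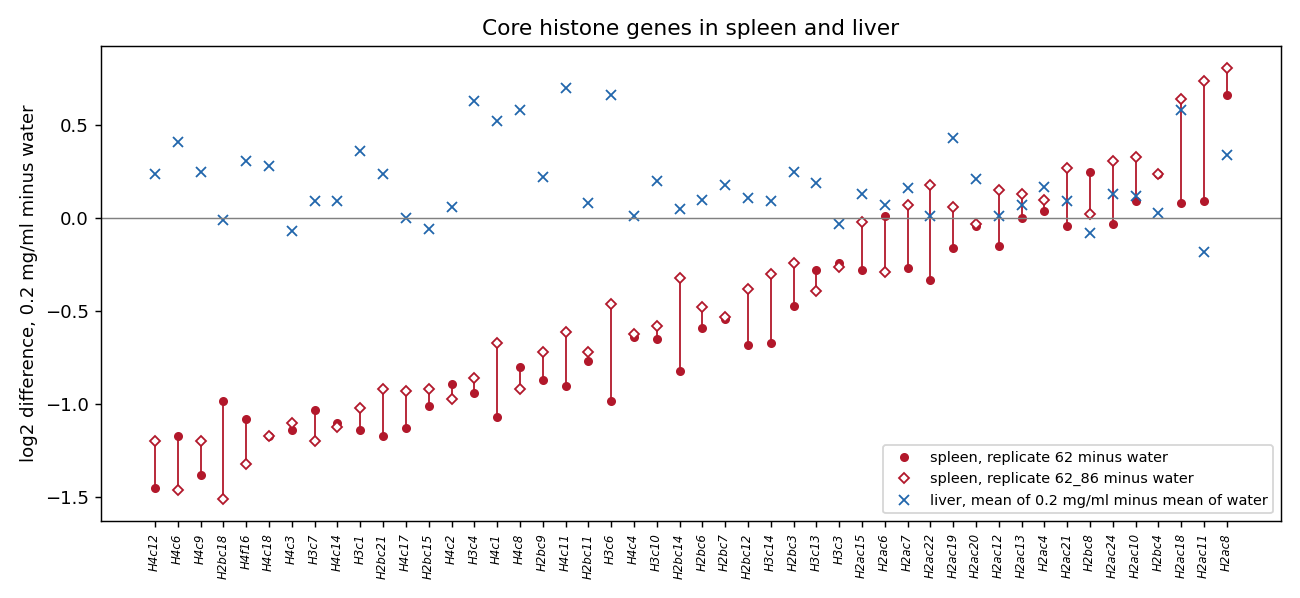
Log2 difference between 0.2 mg/ml and water for 48 core histone genes, ordered by the spleen mean, on spleen replicate 62 (filled red), on spleen replicate 62_86 (open red) and in liver (blue crosses, mean of 2 arrays minus mean of 2). H4, H3 and most H2B genes lie below 0 in spleen, with H4c12 at -1.32, and near or above 0 in liver, where the median is 0.13.

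Rnu6, the U6 spliceosomal RNA, which also has no poly(A) tail, read 10.03 and 10.12 at 0.2 mg/ml, against 11.69 on water, a difference of -1.62 ± 0.33 (adjusted p = 0.363). Zbtb2, a zinc finger transcription factor, had the smallest raw p of the named genes that read lower. It read 6.70 and 6.87 at 0.2 mg/ml, against 8.67 on water, a difference of -1.89 ± 0.28 (adjusted p = 0.258). Both treated arrays were low and close together, which the choice by raw p favours. Psmb1, a subunit of the proteasome core, read 7.16 and 7.62, against 8.98 on water, while the 20 tested proteasome genes had a median of 0.17. Amy2a5, a pancreatic amylase, read 4.79 and 5.01 at 0.2 mg/ml, against 6.39 on water. Of the 27 pancreatic acinar genes on the array only 6 were tested, with 4 higher and 2 lower on both arrays, and their summed level was 262 and 284 against 240 on water.

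Mup2 and Mup3 are major urinary proteins, pheromone carriers made mainly by liver. Mup2 read 6.16 and 6.42 at 0.2 mg/ml, against 7.76 on water, and Mup3 read 4.84 and 5.08, against 6.17 on water. The Mup genes are near-identical copies whose probes can share signal, and 2 further kept probes of Mup2 differed by -2.16 and by 0.20. The 10 tested hepatocyte genes had a median of -0.16 and Alb was undetected. Rufy2, Osbpl11 and Cfap20, which serve endosome transport, lipid binding and cilia, completed the list, with differences of -1.29 ± 0.26, -1.29 ± 0.26 and -1.34 ± 0.28. Their adjusted p-values were 0.363 to 0.377.

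The 0.1 mg/ml spleens offer a comparison that does not use the water array. Here 1 feature of 14179, a probe without a gene name, passed the test between 0.2 and 0.1 mg/ml (0.00705%). Both 0.2 mg/ml arrays lay above both 0.1 mg/ml arrays for 20.4% of all features and below both for 20.0%. Of the 185 features that read higher than water by 1 log2 unit, 140 also lay above both 0.1 mg/ml arrays, and of the 65 that read lower, 22 also lay below both. Both shares follow in part from the choice by the 0.2 mg/ml values, and no test was made of them.

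For 3 of the genes with the smallest raw p, the lower dose lay near water. Serpina3f read 5.13 on water, 5.46 and 5.67 at 0.1 mg/ml, and 7.67 and 8.05 at 0.2 mg/ml. Cxcl10 read 4.69 on water, 5.20 and 4.83 at 0.1 mg/ml, and 7.17 and 7.28 at 0.2 mg/ml. Gbp2b read 7.96 on water, 8.32 and 8.05 at 0.1 mg/ml, and 10.10 and 10.09 at 0.2 mg/ml. The differences between 0.2 and 0.1 mg/ml were 2.29, 2.21 and 1.91, with adjusted p of 0.199, 0.199 and 0.261. Both 0.2 mg/ml arrays lay above both 0.1 mg/ml arrays for 9 of 10 GTPases, 16 of 28 antiviral genes, 11 of 16 MHC class I genes and 13 of 16 red pulp macrophage genes. The medians between 0.2 and 0.1 mg/ml were 0.74 for the GTPases, 0.51 for the antiviral genes and 0.58 for MHC class I. For the macrophage genes the median was 0.70, beside -0.01 over all features. The shift was not particular to these lists. Dendritic cell, killer cell and T cell genes had medians of 0.48, 0.40 and 0.29, while neutrophil genes had -0.96. Replicate 32 read low in the summed T cell level, at 5549 against 8067 on replicate 56, and its part here was not tested. Against water, the medians at 0.1 mg/ml were -0.13 for the GTPases and -0.14 for MHC class I, but 0.37 for the antiviral genes and 0.33 for the macrophage genes, so the last 2 lists also read above water at the lower dose.

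For the C1q genes the lower dose lay farther from water, with a median of 1.57 over C1q and ficolin A. C1qb read 7.09 on water, 8.64 and 8.54 at 0.1 mg/ml, and 9.41 and 9.38 at 0.2 mg/ml. Fcna read 8.31 on water, 10.07 and 9.85 at 0.1 mg/ml, and 10.34 and 10.32 at 0.2 mg/ml. All 4 treated spleens were thus above water, and the difference between 0.2 and 0.1 mg/ml was 0.81 for C1qb (adjusted p = 0.493) and 0.37 for Fcna (adjusted p = 0.657). The core histone genes had a median of -0.51 against water at 0.1 mg/ml, with both arrays averaged, and a median of -0.16 between 0.2 and 0.1 mg/ml. In the summed level of that list the 0.1 mg/ml arrays lay on both sides of water, at 9759 and 72181 against 29301. Both doses are set against the same water array, so any peculiarity of that spleen enters both.

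**Figure D4:**
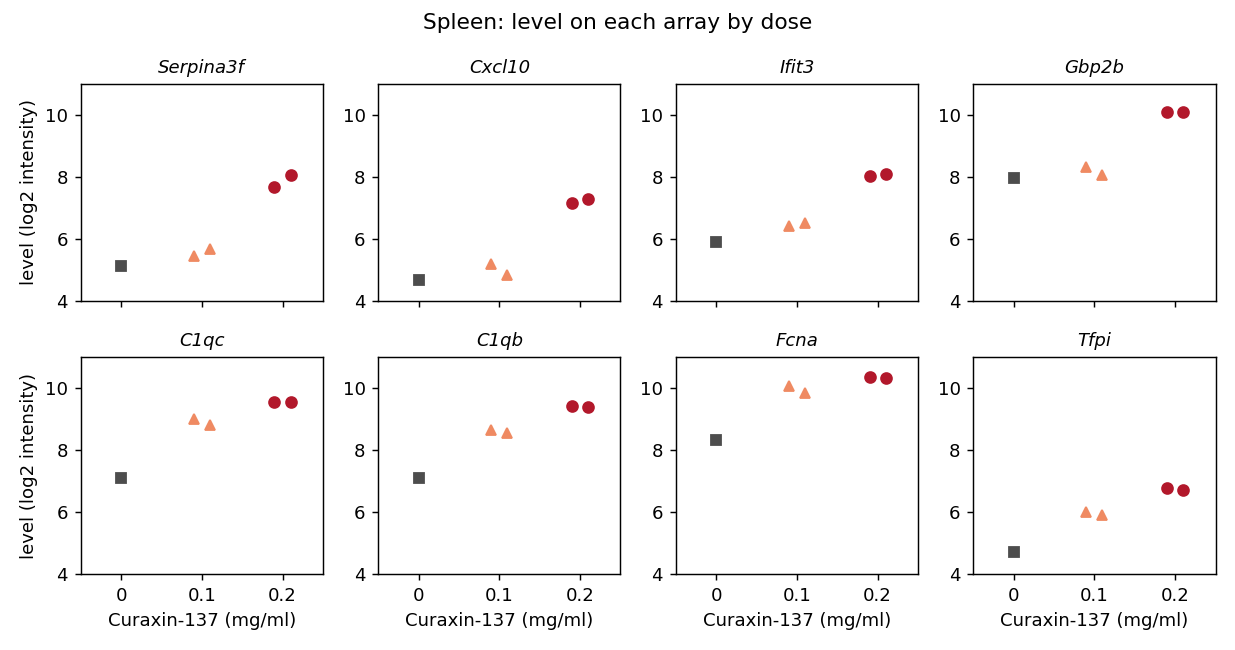
Level of 8 genes (log2 normalized intensity) on each spleen array, by dose of Curaxin-137 in mg/ml: 1 array on water, 2 at 0.1 mg/ml and 2 at 0.2 mg/ml. In the top row the 0.1 mg/ml points of Serpina3f, Cxcl10 and Gbp2b lie near water (Cxcl10 at 5.20 and 4.83 against 4.69). Ifit3 is in that row too, and its antiviral list had a median of 0.37 against water at 0.1 mg/ml. In the bottom row the 0.1 mg/ml points lie between water and 0.2 mg/ml or near 0.2 mg/ml (Fcna at 10.07 and 9.85).

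Genes of DNA replication, near water at 0.2 mg/ml, stood lower than at 0.1 mg/ml: 21 of 28 read lower on both 0.2 mg/ml arrays than on both 0.1 mg/ml arrays, with a median of -1.05. For 19 of 26 erythroid genes the same held, with a median of -1.33. Their summed levels were 4609 and 4406 at 0.2 mg/ml against 5915 and 14737 at 0.1 mg/ml for replication, and 26744 and 28308 against 29934 and 60529 for erythroid genes. Replicate 32 thus stood far above the other arrays in both, and its part in the differences between doses was not tested.

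The response of the spleen to 0.2 mg/ml was tested against that of the liver in a fit of all 11 arrays. Of 16179 features, 8 passed (0.0494%): C1qb, C1qc and Fcna, and 5 probes without a gene name. In this fit C1qb read 9.37 and 9.35 in spleen at 0.2 mg/ml, against 6.80 on water, and 7.64 and 7.82 in liver at 0.2 mg/ml, against 7.44 and 7.48 on water. The spleen response exceeded the liver response by 2.29 ± 0.22 (SE; limma, adjusted p = 0.0129). C1qc exceeded it by 2.47 ± 0.28 (adjusted p = 0.0275) and Fcna by 2.33 ± 0.24 (adjusted p = 0.0129). C1qa showed 1.66 ± 0.26 and did not pass (adjusted p = 0.0950). These calls too rest on the single spleen water array, whose spread was taken from the other groups.

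None of the interferon genes passed this test, where the smallest adjusted p of a listed member was 0.0712 (Ifitm3). In liver, 19 of 29 antiviral genes read higher with a median of 0.10, and 9 of 10 GTPases read higher with a median of 0.45. Some single genes had larger liver differences. Gbp2 read higher by 1.77 in spleen and by 1.12 in liver, and Cxcl9 by 1.73 in spleen and 1.71 in liver. Usp18 differed by 1.58 in spleen and 1.19 in liver. For Cxcl10 the values were 2.53 in spleen and 0.57 in liver, with an adjusted p of 0.223 for the difference. The core histone genes, at a median of -0.55 in spleen (-0.58 in the fit of all 11 arrays), had a median of 0.13 in liver, where 42 of 48 read higher. The share of all features that read higher in liver was not determined, so these liver counts are descriptions only.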

How the data were processed

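Per the submitters' processing notes, bead signals were summarised with GenomeStudio 1.6.0, and the deposited intensities are those unscaled signals. Per the file headers, a deposited detection p-value accompanies every signal. The authors' series matrix holds log2 values, which lie within 0.0898 of the log2 of the quantile-normalized signals of all 11 arrays. Here the 5 spleen arrays were processed with neqc of limma 3.58.1 in R 4.3.3 (normexp background from the detection p-values, offset of 16, quantile normalization, log2). Probes detected at p under 0.05 on at least 2 spleen arrays were kept, the brightest per gene. Genes were named by the platform annotation (1 symbol for 34885 probes), and probes with several symbols (18) or no symbol (10378) stayed unnamed. lmFit fitted 1 mean per group, and eBayes tested it at a Benjamini-Hochberg adjusted p of 0.05, with 2 residual and 4.74 prior degrees of freedom. SE are the moderated ones of this fit. Where the dimmer group was undetected, a fold is a lower bound, set at the lowest level of a detected probe.

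Depth on arrays is the signal over background, and the number of arrays limits the precision. The series' design speaks of 2 mice per group, but both 0.2 mg/ml spleens carry the number 62, so p-values measure a spread between arrays that may be technical. The named genes are the 10 with the smallest raw p in each direction, at most 8 members per list by raw p, cell type markers, and Ssrp1, Supt16, Trp53, Cdkn1a, Mdm2, Nfkbia, Rela, Hsf1, Hspa1b and Erbb2 where tested. Y chromosome genes and Xist were left out. Irgm1 and H2ac8 were named after their values were seen. A probe names 785 of the 854 genes in the 44 lists. The arrays, gene lists and tests were chosen with earlier results of these data known. The limma fit, but not the normalization or the filter, was tested on simulated data. The simulation gave each array, water included, independent noise of the fitted spread, which the real arrays may not have.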

Additional observations from a re-analysis of the deposited data

Results flagged for a closer look

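C1qb, C1qc and Fcna deserve a closer look because their response to 0.2 mg/ml differed between spleen and liver by a test of the difference itself (limma, all 11 arrays). The spleen response exceeded the liver response by 2.29 for C1qb (adjusted p = 0.0129), by 2.47 for C1qc (adjusted p = 0.0275) and by 2.33 for Fcna (adjusted p = 0.0129). With the authors' matrix values the differences were 2.16, 2.33 and 2.28, with adjusted p of 0.00686, 0.0144 and 0.00686. Fcna read 10.50 and 10.47 in spleen at 0.2 mg/ml, against 8.09 on water. In liver it read 8.37 and 8.34 at 0.2 mg/ml, against 8.29 and 8.31 on water. These calls rest on the single spleen water array, and C1qa did not pass the test. The matrix values come from the same arrays. With all 11 arrays processed together the spleen median of C1q and ficolin A was 2.47, against 2.16 with the spleen arrays alone.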

How the results depend on the processing

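The number of features called between 0.2 mg/ml and water, 0 in the main analysis, was 767 with only the 3 arrays, 82 with all 11 arrays and 5 with an intensity trend and robust moderation. Leaving out 1 array gave 10 to 767 calls, the higher counts coming without replicate 56 (767) or replicate 32 (578) of the 0.1 mg/ml group. It stayed 0 under the other alternatives: 75th percentile scaling, no background correction, the authors' matrix values, an offset of 50, both filter settings, averaged 0.2 mg/ml arrays and every kept probe tested. The 250 features past 1 log2 unit on both treated arrays became 161 without background correction and 117 with an offset of 50. With 1 treated array left out the rule applied to the other array alone, which is looser, and gave 365 to 524. Between 0.2 and 0.1 mg/ml the 1 call became 0 with 75th percentile scaling and with the matrix values, and 8 to 1798 with 1 array left out, 1798 without replicate 56 and 1210 without replicate 32. The 8 calls between tissues became 15 with the matrix values. No list median changed sign among those named next. The C1q and ficolin A median of 2.16 was 2.07 with 75th percentile scaling, 2.08 without background correction, 2.37 with the matrix values, 1.98 with an offset of 50 and 2.47 with all 11 arrays. The red pulp macrophage median of 1.05 was 0.89 with the matrix values and 0.87 with an offset of 50. The antiviral median of 0.76 was 0.65, 0.61, 0.55 and 0.52 under those scaling, background, matrix and offset settings, 0.58 without a detection filter, 0.71 with all arrays, and 0.72 to 0.81 with 1 array left out. The GTPase median of 0.87 was 0.97 with the matrix values, 0.80 with an offset of 50, 0.61 without a detection filter, 1.18 with a strict one, 0.93 with all arrays, 0.68 over every kept probe, and 0.87 to 0.95 with 1 array left out. The core histone median stayed within its spread. Supt16 turned to -0.05 with 75th percentile scaling, and ran from -0.16 to 0.25 with 1 array left out. Apart from that source of the spread, the causes of these shifts were not tested. The water array could not be left out. No paired analysis was possible because the groups share no replicate numbers.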
